A study of Danio rerio with 7 samples.

Results

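The enzymes of glycolysis from hexokinase to enolase were followed through 8 deposited gene modules of zebrafish heart muscle cells. The 10 enzyme symbols hk1, gpi, pfkm, pfkp, aldoa, aldoc, tpi1, gapdh, pgam2 and eno3 were matched ignoring case, with a further a or b at the end allowed. They stood on 16 Ensembl identifiers in the table that pairs identifiers with names, and 11 of these lay in a module, out of 4449 module genes in all. Each module is a list of identifiers without values.

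Glycolysis turns glucose into pyruvate in the cytosol. Its upper part, from hexokinase to triosephosphate isomerase, spends ATP to phosphorylate the sugar and splits it into trioses. Its lower part, from glyceraldehyde-3-phosphate dehydrogenase onward, forms NADH and ATP. Adult heart muscle lives mostly on fatty acids, and border zone cardiomyocytes of the regenerating zebrafish heart are known to turn towards glycolysis.

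The cells came from adult zebrafish hearts 7 days after cryoinjury, a freezing injury of the ventricle. All fish carried the reporter nppa:mCitrine, a fluorescent protein under the control of the natriuretic peptide gene nppa, and positive cells were sorted at 1 cell per well into plates of 384 wells for SORT-seq with CEL-Seq2 chemistry. The 3 wildtype plates and 4 hmga1a mutant plates differ by genotype at hmga1a, a gene for an architectural chromatin protein. The labels do not name the mutant allele, the age of the fish in months or the number of hearts behind a plate. The labelled comparison is between these genotypes, but the files analysed here hold no value per plate or cell. No level, depth, replicate error or direction of change in either genotype is therefore given for any enzyme.

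The labelled cell type was checked against marker genes by their presence in the modules only. The marker symbols tnnt2a, tnni1b, vmhc, ttn.1, ttn.2, spi1b, mpeg1.1, hbba1 and hbba2 are not in the name table, so they were not placed. Of 9 cardiomyocyte identifiers in the name table, 8 lay in a module, where 12.5% of all named genes did. Of these, 4 (MYL7, cmlc1, tnnc1a and actc1a, all of the contractile apparatus) lay in module 7, which holds 8.52% of all module genes. The others were spread over further modules. MYH6, a myosin heavy chain, lay in module 4 and another identifier of that name in module 6, while nppa lay in module 5 and nppb in module 2. Markers of other cells were in the modules too: 3 of 6 endothelial, 3 of 3 leukocyte, 1 of 3 erythrocyte and 3 of 5 fibroblast and epicardial identifiers. Of these 10 markers of other cells modules 6 and 7 held 0, where 18.4% of all module genes lay, a share at which 0 of so few is no sign of the cell type. Presence on a list says nothing of a level.

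The enzymes lay in 2 of the 8 modules. Module 6 held 5 of the 11 identifiers and module 7 held 6, while modules 1, 2, 3, 4, 5 and 8 held none. Of all module genes, 9.84% lay in module 6 and 8.52% in module 7, and module 1, the one with most genes, held 34.7%. The enzymes were proposed with the contents of the modules in view, so their number is described and not tested.

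**Figure D1:**
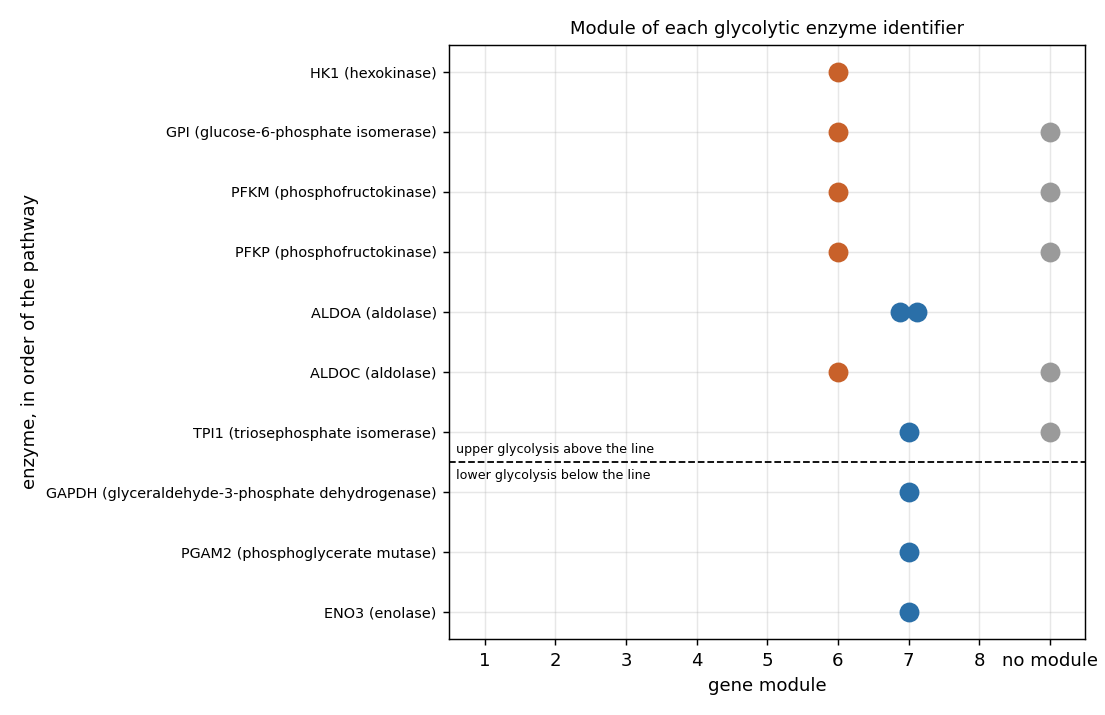
Each point is 1 identifier, placed by its enzyme in pathway order (vertical axis) and by its module or none (horizontal axis). Points of module 6 (5, orange) are all in upper glycolysis. The 3 lower enzymes of the list are all in module 7 (6 points, blue), and 5 identifiers are in no module (grey). Lower enzymes outside the list are not drawn.

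Among these 11 identifiers, those of upper glycolysis were divided between the modules and the 3 of lower glycolysis were not. Of the 8 upper identifiers, 5 lay in module 6 and 3 in module 7. Of the 3 lower identifiers, all lay in module 7, each the sole identifier of its step in the list. Lower enzymes outside the list lay elsewhere, GAPDHS in module 5 and eno2 in module 1. Among the listed enzymes, the change of module fell at the aldolase step, which had identifiers in both modules. Within the list, only phosphofructokinase and aldolase had multiple identifiers in the modules, and those of phosphofructokinase were all in module 6. Every other step had a sole listed identifier there and could not be divided within the list. With GAPDHS and eno2 counted, the glyceraldehyde-3-phosphate dehydrogenase and enolase steps were divided between modules as well. No weight is therefore put on aldolase being the only divided step of the list.

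Hexokinase traps glucose in the cell as glucose 6-phosphate. HK1 (ENSDARG00000039452) lay in module 6, and it was the only identifier of that name. The next enzyme, glucose-6-phosphate isomerase, converts this ester to fructose 6-phosphate. GPI stood on 2 identifiers, of which ENSDARG00000012987 lay in module 6 and ENSDARG00000103826 in no module.

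Phosphofructokinase carries out the committed and most tightly regulated step. Its muscle form and its platelet form, as they are named in mammals, both lay in module 6. PFKM was there as ENSDARG00000060797 and PFKP as ENSDARG00000028000. The other identifier of each, ENSDARG00000014179 for PFKM and ENSDARG00000012801 for PFKP, was in no module.

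Aldolase splits fructose bisphosphate into the trioses. ALDOA, the muscle form in mammals, lay in module 7 with both of its identifiers, ENSDARG00000011665 and ENSDARG00000034470. ALDOC, the brain form in mammals, lay in module 6 as ENSDARG00000019702, and its other identifier, ENSDARG00000057661, was in no module. Enzymes of the same reaction were thus placed in different modules. Triosephosphate isomerase, which interconverts the trioses, lay in module 7 as TPI1 (ENSDARG00000040988), and ENSDARG00000025012 of the same name was in no module.

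In lower glycolysis, GAPDH (ENSDARG00000043457), which oxidises the triose and forms NADH, lay in module 7. PGAM2 (ENSDARG00000057571), a phosphoglycerate mutase known in mammals as the muscle form, lay there as well. So did ENO3 (ENSDARG00000039007), the muscle enolase of mammals, which makes phosphoenolpyruvate. Each of these names stood on 1 identifier. Of further lower enzymes, GAPDHS lay in module 5 and eno2 in module 1. Phosphoglycerate kinase, the enzyme between GAPDH and the mutase, could not be placed, because pgk1 is not a symbol of the name table and 798 of the 4449 module genes have no symbol.

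Zebrafish keep many duplicated genes, and 6 of the 10 enzyme names stood on 2 identifiers. For 5 of these (GPI, PFKM, PFKP, ALDOC and TPI1) 1 copy lay in a module and the other in none. For ALDOA both copies lay in the same module. Over all names on 2 identifiers with at least 1 in a module, 473 of 557 (84.9%) had 1 only, so the pattern of the 5 enzymes is the usual one in these lists. Of the 84 names with both copies in a module, 21 (25.0%) had them in the same module, as ALDOA did. Which copy carries the ending a and which b is not given by the name table. In a RefSeq gene table of another assembly, 16 genes matched the enzyme names, and 0 pairs of them lay within 5 protein-coding genes of each other.

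The annotation charts list, for each module, terms in which its genes are more frequent than in a background, with the authors' fold enrichment, p-value and Benjamini-adjusted p-value. These values are the authors' own, they have no replicate error, and a term was counted as called at an adjusted p under 0.05. Every one of the 11 identifiers was listed in at least 1 row. In the authors' deposited table for module 6, 26 of 115 rows listed at least 1 of the enzymes, and 6 of those 26 were called, where 7.83% of all rows of that chart were. For module 7 the authors' deposited table listed enzymes in 11 of 155 rows, of which 6 were called, where 53.5% of all rows were. The charts of the other 6 modules listed none of them.

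The term glycolytic process was split evenly. In the authors' deposited table it held 6 genes of module 6 at 9.45-fold (p = 0.000401, adjusted p = 0.105) and 6 genes of module 7 at 11-fold (p = 0.000201, adjusted p = 0.00482). The background of the term was 39 genes. In module 6 the genes were HK1, GPI, PFKM, PFKP and ALDOC, and the remaining 1 was INSR, the insulin receptor, which is no glycolytic enzyme. In module 7 all 6 were enzymes: both ALDOA identifiers, TPI1, GAPDH, PGAM2 and ENO3. The call was made in module 7 only, but the counts were equal and the folds close, and the difference between the modules was not tested.

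The KEGG pathway Glycolysis / Gluconeogenesis listed 5 genes of module 6 in the authors' deposited table, all of them the upper enzymes (3.64-fold, p = 0.0471, adjusted p = 0.377). For module 7 the authors' deposited table listed 10 genes (4.11-fold, p = 0.000644, adjusted p = 0.00827). Of these 10, 6 were the enzymes from aldolase to enolase. The other 4 act on pyruvate: LDHB, a lactate dehydrogenase that is the heart form in mammals, and pdha1a, PDHB and DLAT of the pyruvate dehydrogenase complex. That complex feeds pyruvate into the citric acid cycle. PDK4, a kinase that switches it off, was looked up outside the planned lists and lay in module 6, which holds 9.84% of all module genes. Other kinases that act on the complex were not looked up, so no contrast between the modules is drawn from PDK4.

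Carbon metabolism, a wider KEGG pathway, listed for each module the same enzymes as Glycolysis / Gluconeogenesis did. No enzyme identifier could be listed for both modules, as each chart lists only genes of its own module. For module 6 the authors' deposited table listed 7 genes (3.08-fold, adjusted p = 0.241): the 5 upper enzymes with IDH3G and ogdha of the citric acid cycle. For module 7 it listed 16 genes in the authors' deposited table (3.98-fold, adjusted p = 0.000148), the 6 enzymes among them. The remaining 10 belong to the pyruvate dehydrogenase complex (DLAT, PDHB, pdha1a), to the citric acid cycle (MDH2, IDH2, FH, DLST, SDHC), to fatty acid oxidation (ECHS1) and to the cytosolic malate dehydrogenase MDH1.

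**Figure D2:**
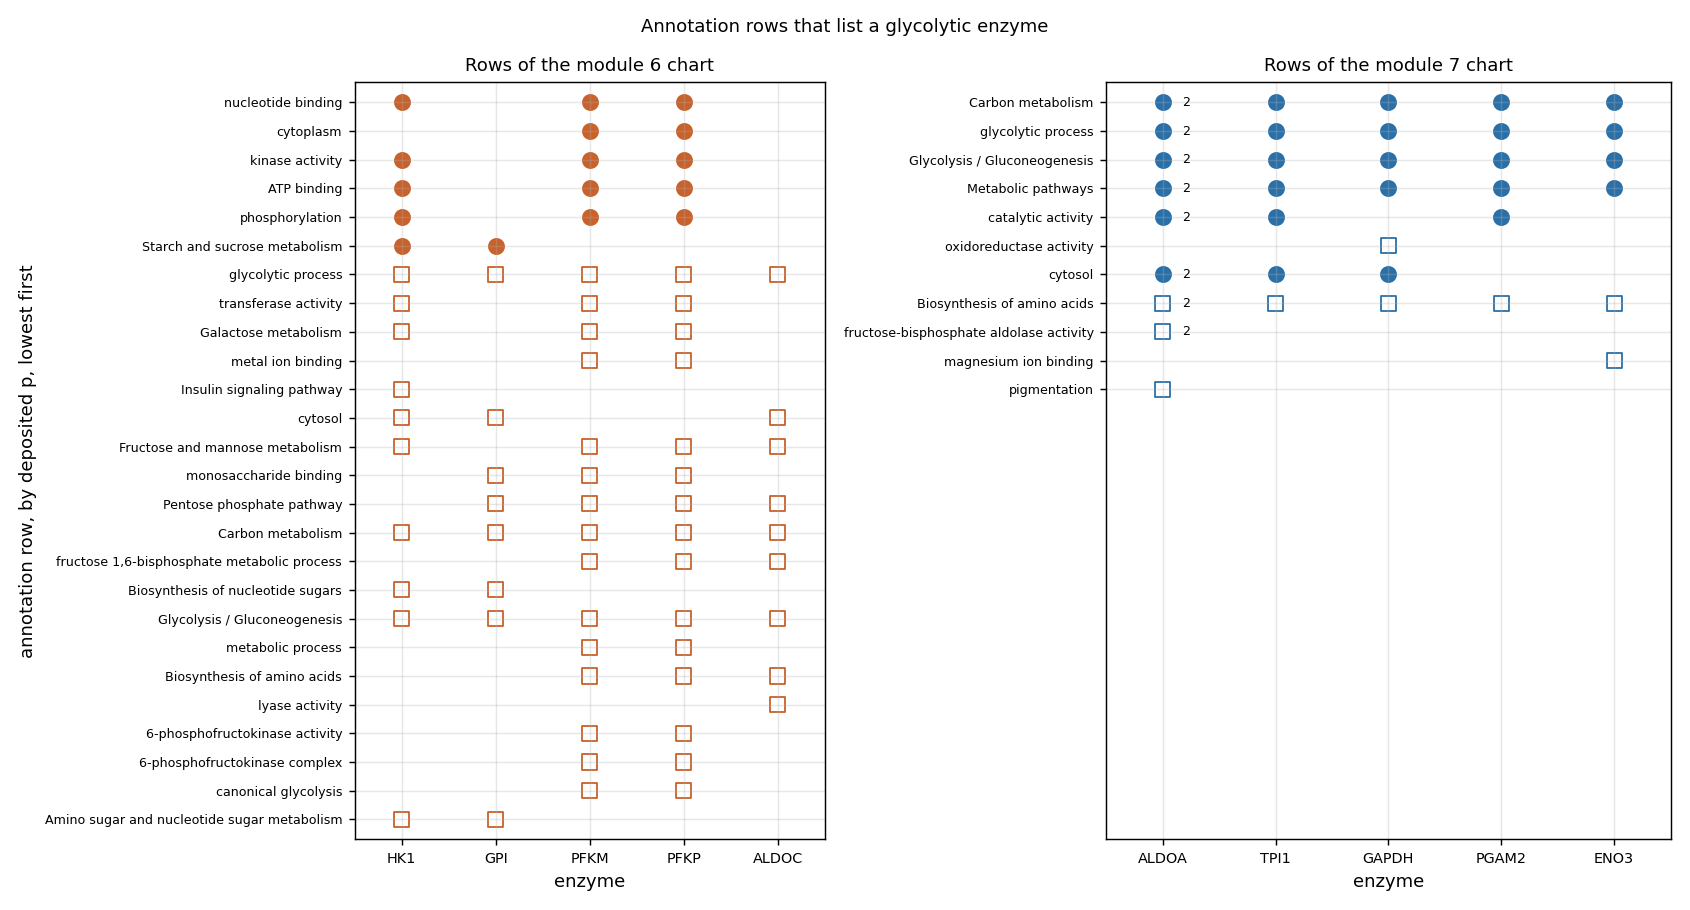
Each mark shows that an enzyme (horizontal axis) is listed in an annotation row (vertical axis, lowest deposited p at the top), with the module 6 chart on the left and the module 7 chart on the right. Filled circles are rows with an adjusted p under 0.05 (6 in each chart), open squares are rows above it, and the digit 2 marks both ALDOA identifiers. The rows called in module 6 that list an enzyme hold the kinases HK1, PFKM and PFKP, and GPI in 1 row, while 4 of those in module 7 list all the enzymes there.

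The called rows that listed enzymes had no term in common between the 2 charts, and the upper enzymes ALDOA and TPI1 were in those of module 7. That is close to what all rows showed: of the 16 rows in both charts, 1 was called in both. In all, 9 rows were called in module 6 and 83 in module 7. The lack of a common called term is therefore not read as a trait of the enzymes. In module 6, 4 of the 6 called rows that listed enzymes were those of kinases, phosphorylation and nucleotide or ATP binding. Kinase activity held 28 genes in the authors' deposited table (2.52-fold, adjusted p = 0.00345), among them HK1, PFKM and PFKP, which use ATP to phosphorylate sugars. Nucleotide binding (61 genes, 2.32-fold, adjusted p = 3.13e-07 in the authors' deposited table), ATP binding (53 genes, 1.81-fold, adjusted p = 0.00345) and phosphorylation (28 genes, 2.39-fold, adjusted p = 0.0397) listed the same 3 enzymes. The 3 enzymes are thus a small share of each of these rows. Cytoplasm (112 genes, 1.58-fold, adjusted p = 1.45e-05 in the authors' deposited table) listed PFKM and PFKP.

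The remaining called row of module 6 that listed enzymes was Starch and sucrose metabolism, with HK1 and GPI beside genes of glycogen metabolism. It held 6 genes in the authors' deposited table (9.30-fold, p = 0.000398, adjusted p = 0.0382). Beside HK1 and GPI these were the glycogen phosphorylases PYGM and PYGB, which release glucose 1-phosphate from glycogen, UGP2, which makes UDP-glucose, and GAA, the lysosomal glucosidase. ALDOC was in none of the called rows. Galactose metabolism (8.67-fold, adjusted p = 0.0765) listed HK1, PFKM and PFKP in the authors' deposited table. Fructose and mannose metabolism (6.55-fold, adjusted p = 0.107) listed these and ALDOC in the authors' deposited table. Both rows missed the threshold.

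In module 7, where 83 rows were called, the 3 further called rows that listed enzymes were broad ones. Metabolic pathways held 76 genes in the authors' deposited table (1.37-fold, adjusted p = 0.0142), all 6 enzymes among them. Catalytic activity held 14 (2.61-fold, adjusted p = 0.0418 in the authors' deposited table), among them both ALDOA identifiers, TPI1 and PGAM2, beside the creatine kinases ckma, ckmb, CKB and CKMT2. Cytosol (27 genes, 1.68-fold, adjusted p = 0.0494 in the authors' deposited table) listed both ALDOA identifiers, TPI1 and GAPDH. Fructose-bisphosphate aldolase activity was listed for both ALDOA identifiers out of 5 background genes in the authors' deposited table (29.0-fold) and was not called (adjusted p = 0.431).

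Rows made up of phosphofructokinase alone rested on 2 genes each. In the authors' deposited table the rows for 6-phosphofructokinase activity (21.6-fold, adjusted p = 0.934), the 6-phosphofructokinase complex (21.4-fold, adjusted p = 1) and canonical glycolysis (20.5-fold, adjusted p = 1) each listed PFKM and PFKP out of 6 background genes. None was called. The folds of such short rows were high while their adjusted p-values were close to 1.

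**Figure D3:**
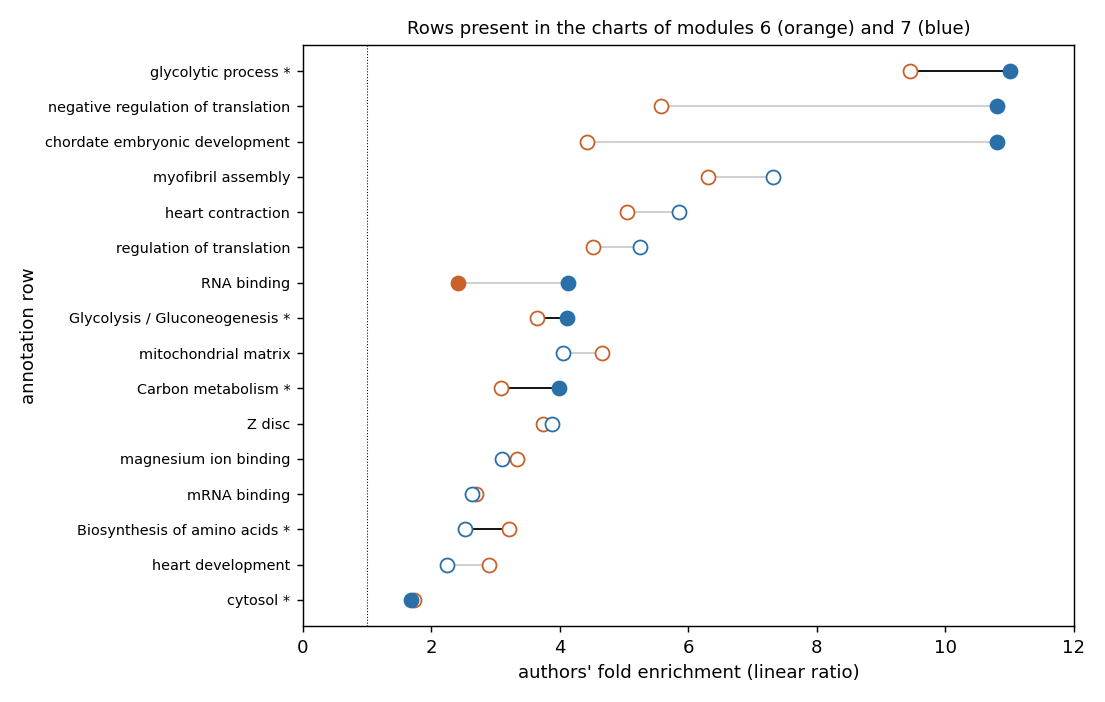
Points are the authors' fold enrichment (horizontal axis, linear ratio) of the 16 annotation rows that are in the charts of both modules, orange for module 6 and blue for module 7, filled where the adjusted p was under 0.05. Asterisks and black lines mark the 5 rows that list glycolytic enzymes in both charts. Glycolytic process lies at 9.45 and 11, with only the module 7 point filled.

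The charts of modules 6 and 7 had 16 rows in common, and 5 of these listed glycolytic enzymes in both. They were glycolytic process, Glycolysis / Gluconeogenesis, Carbon metabolism, Biosynthesis of amino acids and cytosol. Biosynthesis of amino acids listed PFKM, PFKP and ALDOC for module 6 (3.20-fold) and all 6 enzymes for module 7 (2.53-fold) in the authors' deposited table, and neither was called (adjusted p = 0.472 and 0.484). RNA binding, which listed no glycolytic enzyme, was the 1 row called in both charts. Since no gene lay in both modules, every shared row rested on different genes in the 2 charts.

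Further genes of core glycolysis and pyruvate metabolism were in a module about as often as any named gene. Of the name table's 29201 genes, 12.5% lay in any module, and of 22 such further identifiers 3 did (13.6%), against 11 of 16 (68.8%) of the enzymes followed here, which were named with the module contents known. The 3 were GAPDHS, another glyceraldehyde-3-phosphate dehydrogenase, in module 5, eno2, the enolase of neurons in mammals, in module 1, and LDHB in module 7. Hexokinase 2 (HK2), both identifiers of ENO1 and of pyruvate kinase (PKM), and LDHA, the muscle form of lactate dehydrogenase in mammals, were in no module.

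**Figure D4:**
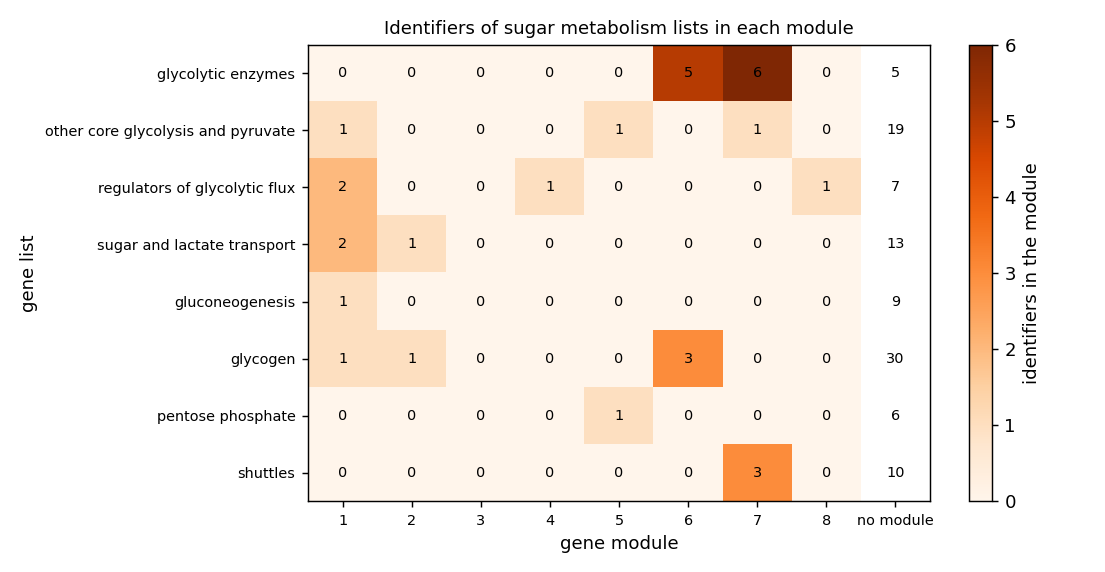
Each cell gives the number of identifiers of a sugar metabolism list (vertical axis) in a module, or in none (horizontal axis), and darker cells hold more. The enzymes followed here are at 5 in module 6 and 6 in module 7, glycogen genes at 3 in module 6 and shuttle genes at 3 in module 7.

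Of 27 identifiers of flux regulators and of sugar and lactate transporters in the name table, 7 lay in a module (25.9%). Of all named genes, 12.5% did. Module 1, with 34.7% of all module genes, held 4 of them, and modules 6 and 7, with 18.4% together, held 0. With 7 identifiers such counts are too small to set them apart from the share of all genes. In module 1 were PFKFB3 and PFKFB4, which make and remove the fructose 2,6-bisphosphate that activates phosphofructokinase. SLC2A1, a glucose transporter, and SLC16A3, a lactate exporter, were there as well. SLC16A1, another monocarboxylate transporter, lay in module 2, HIF1A, the transcription factor of the hypoxia response, in module 4, and tigara, a fructose bisphosphatase, in module 8. The 1 gluconeogenic gene in a module of 10 identifiers, FBP2, which reverses the phosphofructokinase step, lay in module 1. The authors' deposited table lists FBP2, PFKFB3 and PFKFB4 together under fructose metabolic process for module 1 (5.60-fold, adjusted p = 1), a row that was not called.

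Of 35 glycogen identifiers 5 were in a module (14.3%, near the 12.5% of all named genes). Of these 5, PYGM, PYGB and UGP2 were in module 6, which holds 9.84% of all module genes. The other 2 were PHKA2, a subunit of phosphorylase kinase, in module 2 and gsk3bb, a kinase that inhibits glycogen synthase, in module 1. Of 13 identifiers of the shuttles that carry cytosolic reducing equivalents into mitochondria, 3 were in a module (23.1%), and all 3 were in module 7, which holds 8.52% of all module genes and both upper and lower enzymes. They were the malate dehydrogenases MDH1 and MDH2 and the malate carrier SLC25A11. Of 7 pentose phosphate identifiers, prps1b in module 5 was the 1 in a module. These counts are small and were not tested. Pentose phosphate pathway had a row for module 6 in the authors' deposited table (7.14-fold, adjusted p = 0.21), which was not called. Its 4 genes were the glycolytic enzymes PFKM, PFKP, ALDOC and GPI.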

How the data were processed

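Single cells were sequenced from 3 wildtype and 4 hmga1a mutant plates, grouped by their labels. The submitters' processing notes name Seurat, without a version or role. No aligner, genome build or cell filter is named in these sources. The deposited files are 8 lists of Ensembl identifiers, without values, and 8 annotation charts. The counts of genes per term, the percent of module genes, the p-values and the adjusted p-values were deposited by the authors, as the file headers name them. Fold enrichment is the authors' ratio of the term's share in the module to its share in the background, and recomputing it from the deposited counts gave the same value within 0.1% in 100% of the 834 rows. In 35 rows, 1 of them listing an enzyme, the gene count differs from the number of identifiers listed.

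Symbols came from a table of 29201 zebrafish genes, which names 3651 of the 4449 module genes (82.1%). A RefSeq table of assembly GRCz12tu gave synonyms and neighbours only. Depth per plate is unknown, so no interval or limit is given. The planned exact permutation test over plates could not be made, and no other test was run. The enzymes and lists were chosen with earlier results of these data known. All enzymes and all further pathway genes found in a module are named. The planned promoter motifs were not searched, as no sequences were used here. Python 3.11.15, pandas 2.3.3 and matplotlib 3.10.9 were used.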

Additional observations from a re-analysis of the deposited data

How the results depend on the processing

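Under 9 alternatives 48 counts were recomputed, and 46 stayed within 1.5 times the reported count. Matching exact symbols, adding RefSeq synonyms, or keeping each module list only up to where its identifiers stop ascending left 5 enzymes in module 6 and 6 in module 7. So did keeping only identifiers listed in the chart of their module, an alternative chosen after seeing the data. That outcome was fixed, because every enzyme identifier in a module is listed in a row of its chart. All 11 also match their symbol exactly and lie in the ascending part of their list. The 46 thus include counts that could not move, and they are no measure of robustness. With triosephosphate isomerase counted as lower glycolysis, upper glycolysis had 5 identifiers in module 6 and 2 in module 7, and lower glycolysis 4 in module 7. With all core glycolysis genes, 2 (GAPDHS and eno2) lay outside modules 6 and 7, against 0 reported. Glycolysis terms were picked by words in their names, such as glycolytic, gluconeogenesis, fructose, glucose, pyruvate metabolism or carbon metabolism. That choice left out Starch and sucrose metabolism, a called row of module 6 that lists HK1 and GPI. The number of glycolysis terms that list enzymes and pass the threshold in module 6 was 0 at an adjusted p under 0.05. At an unadjusted p under 0.05 it was 5. In module 7 it was 3 under both, and also at an adjusted p under 0.01. These numbers depend on the words chosen. No paired analysis was possible because the files hold no values per plate, and leaving out plates was not run for the same reason. Depth cannot be judged from these files.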

Other observations

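The insulin pathway had a row in the charts of modules 2 and 6. In the authors' deposited table, Insulin signaling pathway listed 10 genes of module 6 (3.27-fold, p = 0.00319, adjusted p = 0.0766). HK1 was among them with the receptor INSR, its adaptor IRS2, the kinase akt2, the energy sensor subunit PRKAA1, the phosphatase subunit PPP1CB and the glycogen phosphorylases PYGM and PYGB, besides RHOQ and PPARGC1A. For module 2 the authors' deposited table listed 12 genes of the same pathway (2.69-fold, p = 0.00477, adjusted p = 0.132), among them PIK3CA, SHC1, BRAF, kras and the phosphorylase kinase subunit PHKA2. Neither row was called.

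Heart muscle rows were also in the charts of both modules that hold the enzymes. In the authors' deposited table, heart contraction held 6 genes of module 6 (5.05-fold, adjusted p = 0.436) and 6 of module 7 (5.86-fold, adjusted p = 0.0559). Myofibril assembly held 4 genes in each (6.30-fold and 7.31-fold in the authors' deposited table, adjusted p = 0.94 and 0.204). None of these rows was called, and none listed a glycolytic enzyme.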
